A study of Macaca mulatta with 12 samples.

Results

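The TRBJ2 cluster of the rhesus macaque T cell receptor beta (TRB) locus was followed here through its 7 joining segments, TRBJ2-1 to TRBJ2-7. Members were the clonotypes whose first listed J hit was a TRBJ2 segment. A clonotype is 1 row of a clone table, defined by the nucleotide sequence of its CDR3, the stretch where V, D and J segments meet. Over 12 libraries, 133984 of 218326 clonotypes and 1639897 of 2588075 counts were members, and 133893 of these clonotypes were in the 8 libraries taken after infusion. The other clonotypes carried 1 of the 6 TRBJ1 segments. All 7 segments were found in each of the 8 post-infusion libraries.

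The libraries were made from polyadenylated RNA of blood mononuclear cells, frozen before use, of rhesus macaques. The 4 baseline libraries came from animals with other names and are called baseline 1 to 4. The post-infusion libraries carried the names Amazo, Nebula and Rocket, at day -5 (n = 3), day -4 (n = 3), day 0 (Nebula) and day +3 (Amazo). These animals were given apoptotic donor leukocytes (ADLs), donor spleen and blood cells fixed with the cross-linker ethylcarbodiimide, on days -7 and 1 by the series text. A figure legend of the study places the second infusion of these animals on day 0, so the order of the Nebula day 0 library and that infusion is not settled. Per the study's methods they were neither diabetic nor transplanted, received cells of an MHC class I-disparate donor matched at one DRB allele, and were covered by transient immunosuppression with the anti-CD40 antibody 2C10R4, rapamycin, a soluble TNF receptor and an anti-IL-6 receptor antibody. No library of animals given the immunosuppression alone was analysed here, so infusion and immunosuppression cannot be told apart.

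A J segment supplies the end of the CDR3 and the start of the framework that follows it. In developing T cells a D segment joins to a J segment first, and a V segment then joins to that product. The locus holds a pair of clusters in a row, each with a D segment, J segments and a constant gene, so the second D segment, TRBD2, lies next to TRBJ2 and downstream of TRBJ1. Each joining trims the segment ends and adds untemplated bases, and a rearrangement that is out of frame or carries a stop codon cannot encode a receptor chain.

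The J-encoded part of the CDR3 is shown for each segment, since length, trimming and the forms of TRBJ2-1 below are all read against it. Each sequence is the most frequent end, 5′ to 3′, among CDR3s with no J base removed in the file's alignment. For TRBJ2-1 a pair of such ends was frequent, and the capitals mark the bases at which they differ.
TRBJ2-1, reference form: ctcctacAAtgagcagttcttt
TRBJ2-1, variant form: ctcctacGGtgagcagttcttt
TRBJ2-2: ctaacaccgcgcagctgttcttt
TRBJ2-3: agcacagatccgcagtatttt
TRBJ2-4: agccaaaacactcagtacttc
TRBJ2-5: accaagagacccagtacttc
TRBJ2-6: ctctggggccagcgtcctgactttc
TRBJ2-7: ctcctacgagcagtacttc
TRBJ2-6 had the longest such part with 25 bases and TRBJ2-7 the shortest with 19. The parts of TRBJ2-2 and TRBJ2-1 held 23 and 22 bases, those of TRBJ2-3 and TRBJ2-4 held 21 each, and that of TRBJ2-5 held 20. Chromosome positions of the segments were not used here.

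Depth and identity of the libraries bear on every value below. Total counts ran from 63 to 74 at baseline and from 42695 (Nebula day -4) to 556954 (Rocket day -5) after infusion, with 30 to 49 and 17061 to 36038 clonotypes. Every baseline library was thus far shallower than every post-infusion library, and depth and group cannot be told apart. Names did not always mark 1 repertoire. Between TRBJ2 clonotypes, the libraries labelled Amazo day -5, Amazo day +3, Rocket day -5 and Rocket day -4 overlapped with each other, as did the 3 Nebula libraries (Morisita-Horn index, which is 0 with no shared clonotype and 1 with equal composition, 0.775 to 0.983 in 9 pairs). The other 19 pairs, all pairs with Amazo day -4 included, did not exceed 0.00597. The 8 libraries therefore hold 3 repertoires, and values are also given with 1 library for each (Amazo day -4, Nebula day -5 and Rocket day -5). Tests over libraries used the mean of each of the 3 animal names, and such exact tests cannot go below p = 0.25.

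The forms of TRBJ2-1 split the libraries the same way. Relative to the reference form, to which the files' alignment assigns no mismatch, the variant form carried A8G and A9G, with positions counted from the 5′ base of the J-encoded part. Clonotypes were assigned by an exact match to the last 16 bases of either form, a rule made after the sequences had been seen. Among 350 distinct CDR3s with the full J part, 51.7% ended in the variant form and 44.9% in the reference form. Each of the other 6 segments had a single frequent form, and the next most frequent end reached at most 3.24%.

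In the 4 libraries of the shared Amazo and Rocket repertoire, the reference form made up most of the assigned TRBJ2-1 clonotypes. In Amazo day -5 there were 1809 clonotypes of the reference form beside 1108 of the variant form (62.0%, 95% Wilson interval 60.2 to 63.8), and the share was 63.2% in Amazo day +3, 63.3% in Rocket day -5 and 62.8% in Rocket day -4. In Amazo day -4 it was 3 clonotypes beside 1787 of the variant form (0.168%, 0.0570 to 0.492). In the Nebula libraries it was 4 beside 2055 at day -5, 0 beside 1205 at day -4 and 2 beside 1944 at day 0, and the 0 allows a share of up to 0.249%. The groups of libraries did not overlap, and libraries labelled Amazo fell on both sides. Of the 9 reference-form clonotypes in these 4 libraries, 8 had a CDR3 that also occurred in the 4 libraries of the shared repertoire. The baseline libraries held 6 clonotypes of the reference form and 3 of the variant form, with 6 unassigned, which is too few for a share.

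**Figure D1:**
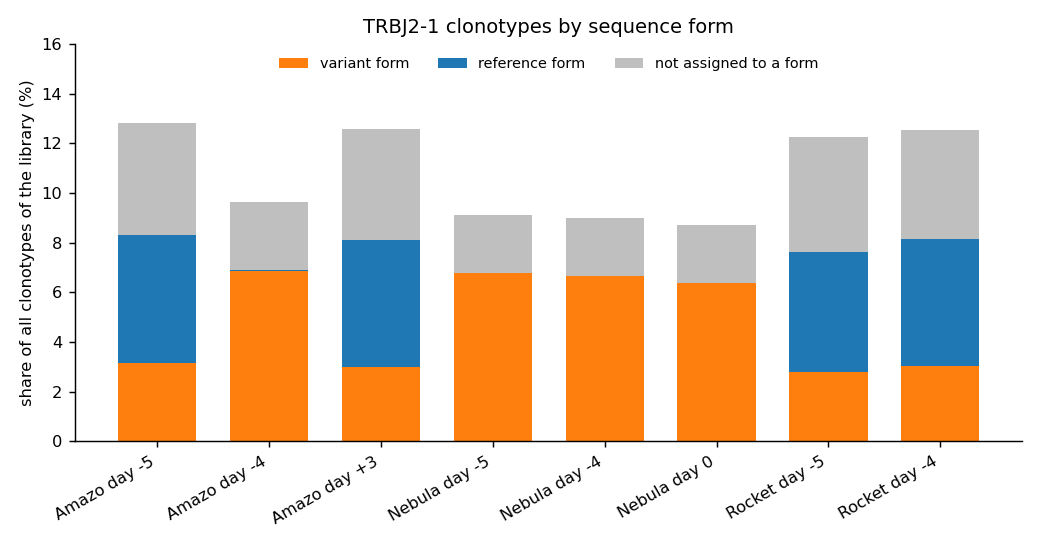
TRBJ2-1 clonotypes as a share of all clonotypes (y axis, %) in each of the 8 post-infusion libraries (x axis), stacked by sequence form. The reference form took 4.81% to 5.15% of clonotypes in 4 libraries and at most 0.0132% in the other 4, where the variant form took 6.38% to 6.87%.

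TRBJ2-1 as a whole took more of the repertoire where both forms were present. Its share of clonotypes was 12.8%, 12.6%, 12.3% and 12.5% in Amazo day -5, Amazo day +3, Rocket day -5 and Rocket day -4. It was 9.64% in Amazo day -4 and 9.13%, 8.98% and 8.72% in Nebula day -5, day -4 and day 0. The variant form alone took 2.79% to 3.16% of clonotypes in the first 4 libraries and 6.38% to 6.87% in the others. Both forms together took 7.60% to 8.31% and 6.38% to 6.88%, and the rest of the segment's clonotypes could not be assigned. TRBJ2-3, which had a single frequent form, split the same way. It took 10.4% to 11.3% of clonotypes in the first 4 libraries, 8.78% in Amazo day -4 and 8.57% to 9.16% in Nebula. The presence of both forms and the repertoire cannot be told apart. The 8 libraries hold 3 repertoires, so no test was made.

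The forms also bear on what the files record of J trimming. The alignment removed 3.54 ± 0.0276 J bases from productive clonotypes of the reference form (SD, n = 4 libraries) and 7.53 ± 0.0591 from those of the variant form (SD, n = 8). An uninterrupted match from the 3′ end against either form gave 18.4 ± 0.0403 and 18.1 ± 0.0562 J bases kept, among assigned clonotypes, which all kept at least 16. By the alignment TRBJ2-1 lost 7.08 ± 0.949 of its bases, and by the match 5.20 ± 0.189 (SD, n = 8). The match was therefore used for all segments. Productive CDR3s averaged 44.6 ± 0.227 bases with the reference form and 44.0 ± 0.226 with the variant form in the same 4 libraries, and the nonproductive share was 5.54% ± 0.683 and 5.31% ± 0.593 (SD, n = 4).

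The first comparison was the order of use. By clonotypes, each row counted once, TRBJ2 took 61.3% ± 3.34 of the repertoire after infusion (SD, n = 8), with 57.2% in Nebula day 0 as the lowest value, a median of 62.8% and 64.5% in Rocket day -5 as the highest. The mean shares of the segments, as a percent of all clonotypes, were 11.4% ± 0.266 for TRBJ2-7, 10.8% ± 1.85 for TRBJ2-1, 9.82% ± 1.04 for TRBJ2-3, 9.15% ± 0.512 for TRBJ2-4, 8.52% ± 0.342 for TRBJ2-5, 7.86% ± 0.350 for TRBJ2-2 and 3.74% ± 0.357 for TRBJ2-6 (SD, n = 8). With 1 library per repertoire the order of the means was the same, from 11.4% for TRBJ2-7 to 4.00% for TRBJ2-6.

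Over all clonotypes, the lower end of the order did not change between libraries. TRBJ2-6 was last and TRBJ2-2 next to last in 8 of 8. TRBJ2-6 ran from 3.30% to 4.34%, with a median of 3.63%, and stood 4.12 ± 0.208 percentage points below TRBJ2-2. TRBJ2-5 was above TRBJ2-2 in 8 of 8 libraries, by 0.651 ± 0.357 points, and by only 0.0884 points in Amazo day -4. Among productive clonotypes alone TRBJ2-2 ranked as high as 5 and TRBJ2-5 as low as 6.

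The upper end did change. TRBJ2-7 was first in 4 libraries and TRBJ2-1 in the other 4, which were those with both forms of TRBJ2-1, and their mean difference of 0.554 ± 2.02 points was smaller than its SD. TRBJ2-7 varied least, from 11.04% to 11.78% with a median of 11.4%. TRBJ2-3 and TRBJ2-4 did not differ beyond their spread (0.670 ± 1.28 points, order kept in 6 of 8). TRBJ2-1 stood above TRBJ2-3 by 1.01 ± 0.976 points in the mean, with the order kept in 6 of 8 libraries. In Nebula the 2 were nearly equal, with means of 8.94% and 8.92%. TRBJ2-4 stood above TRBJ2-5 by 0.637 ± 0.5262 points in the mean, with the order kept in 7 of 8. With 1 library per repertoire, each of these pairs kept its order in 2 of 3. Of the 8 libraries behind these SDs, 4 share a repertoire. For the pairs other than the first, the exact sign-flip test over 3 names gave p = 0.25, its smallest value (adjusted p = 0.3 over 6 pairs). For TRBJ2-7 against TRBJ2-1 the exact test gave p = 1.

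By counts, TRBJ2 took 62.3% ± 6.58 of the repertoire (SD, n = 8), from 55.5% in Nebula day -4 to 69.2% in Rocket day -5, with a median of 62.9%. The order of the means became TRBJ2-1 (14% ± 5.07), TRBJ2-3 (12.7% ± 5.02), TRBJ2-7 (10.0% ± 2.50), TRBJ2-2 (8.0% ± 1.0), TRBJ2-5 (7.37% ± 0.469), TRBJ2-4 (6.97% ± 1.74) and TRBJ2-6 (3.32% ± 0.177). The 4 neighbouring differences from TRBJ2-3 down to TRBJ2-4 were smaller than their SDs, and each kept its sign in 4 of 8 libraries. TRBJ2-1 was above TRBJ2-3 in 8 of 8, by 1.34 ± 1.22 points, and TRBJ2-6 was last in 8 of 8. The exact sign-flip test gave p = 0.25 to p = 0.75 for the 6 pairs (adjusted p = 0.75 for each).

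The mean order by counts joined different orders. In the 4 libraries of the shared Amazo and Rocket repertoire it ran TRBJ2-1, TRBJ2-3, TRBJ2-2, TRBJ2-7, TRBJ2-5, TRBJ2-4 and TRBJ2-6 without exception. In Amazo day -4 and the 3 Nebula libraries TRBJ2-7 was first and TRBJ2-1 second. Below these the order varied between those libraries, and TRBJ2-3 ranked as low as 5. TRBJ2-3 took 16.7%, 16.7%, 18.7% and 17.2% of counts in Amazo day -5, Amazo day +3, Rocket day -5 and Rocket day -4. It took 7.88% in Amazo day -4 and 8.31%, 7.69% and 8.12% in Nebula day -5, day -4 and day 0. TRBJ2-7 went the other way, with 8.50%, 7.67%, 7.06% and 7.79% in the first set, 11.5% in Amazo day -4 and 12.5%, 13.04% and 12.1% in Nebula. The sets did not overlap for either segment, nor for TRBJ2-1, TRBJ2-2, TRBJ2-4 and TRBJ2-5. For TRBJ2-6 they did, with 3.20% to 3.51% in the first set, 3.27% in Amazo day -4 and 2.97% to 3.37% in Nebula. The libraries of the first set share a repertoire and its large clones.

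**Figure D2:**
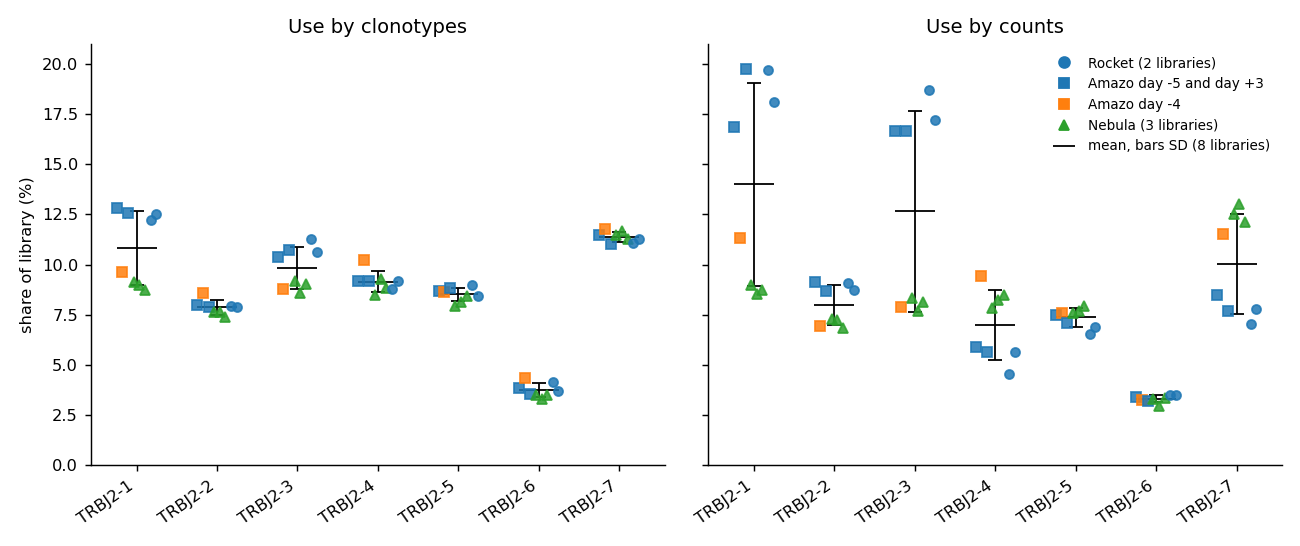
Share of each TRBJ2 segment (x axis) in each post-infusion library (y axis, % of the library), by clonotypes on the left and by counts on the right. Points are libraries, coloured by shared repertoire, and bars are the mean and SD of 8 libraries. By counts TRBJ2-1 and TRBJ2-3 reached 19.7% and 18.7% in the blue libraries, while TRBJ2-6 stayed between 2.97% and 3.51%.

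The next question was how much of this came from large clones, taken as clonotypes of at least 0.5% of a library. The 4 libraries of the shared repertoire held 22 to 25 such clones, of which 17 in Amazo day -5, Amazo day +3 and Rocket day -4 and 18 in Rocket day -5 carried TRBJ2. Amazo day -4 held 7 with TRBJ2 of 10, and the Nebula libraries 1 of 2, 2 of 4 and 1 of 2. All of these clones were productive. Of all clonotypes TRBJ2 took 63.7% to 64.5% in the shared repertoire, 62.0% in Amazo day -4 and 57.2% to 57.6% in Nebula. The large TRBJ2 clones made up 39.01%, 44.2%, 52.8% and 43.5% of TRBJ2 counts in Amazo day -5, Amazo day +3, Rocket day -5 and Rocket day -4, 12.9% in Amazo day -4 and 1.28% to 3.05% in Nebula. Large TRBJ1 clones made up 28.0% to 41.9% of TRBJ1 counts in the shared repertoire, 24.1% in Amazo day -4 and 4.27% to 10.3% in Nebula.

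Without the large clones, counts and clonotypes gave nearly the same TRBJ2 share in each library. These clones were chosen by their counts, so their removal brings the shares closer in part by construction. In Rocket day -5 the share of counts went from 69.2% to 64.5%, beside 64.5% of clonotypes. In Amazo day -4 it went from 58.0% to 61.3%, beside 62.0% of clonotypes, since TRBJ2 made up 42.5% of the counts of its large clones. The ratio of count share to clonotype share of the single segments ran from 0.519 (TRBJ2-4) to 1.66 (TRBJ2-3) with the large clones and from 0.877 (TRBJ2-2) to 1.09 (TRBJ2-7) without them. A clonotype's count is set by its RNA and by PCR as well as by the number of its cells, and these cannot be told apart here.

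**Figure D3:**
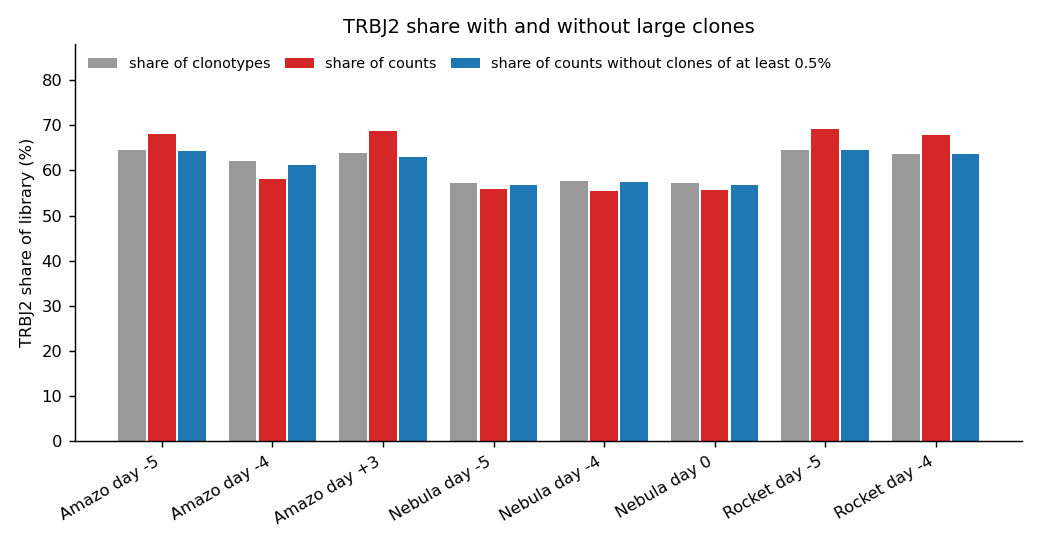
TRBJ2 share of each post-infusion library (y axis, %), as bars for the share of clonotypes, of counts, and of counts after removal of clones of at least 0.5% of the library. The share of counts stood above the share of clonotypes in the 4 libraries of the shared Amazo and Rocket repertoire and below it in the other 4. Without the large clones it lay between 56.7% and 64.5%.

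The large clones were spread unevenly over the segments. TRBJ2-3 held 5 or 6 of them in each library of the shared repertoire, and they made up 60.5% to 70.4% of its counts there. For TRBJ2-1 they made up 51.0% to 66.5%, for TRBJ2-2 44.4% to 61.3%, for TRBJ2-6 31.0% to 45.0%, for TRBJ2-5 21.7% to 29.4% and for TRBJ2-7 12.5% to 17.1%. TRBJ2-4 had no clone of this size in these 4 libraries, and its share of counts there was 4.56% to 5.88% beside 8.79% to 9.20% of clonotypes. TRBJ2-7 was the segment with such a clone in each of the 8 libraries.

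The leading clones show how the same segment ended in different junctions. Below, the CDR3 is given with the bases that match the J-encoded part without a break from the 3′ end in capitals. The clones are the largest of each segment and every TRBJ2 clone of at least 2% of a library.
TRBJ2-1 with TRBV29-1: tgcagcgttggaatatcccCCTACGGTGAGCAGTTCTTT
TRBJ2-1 with TRBV12-2: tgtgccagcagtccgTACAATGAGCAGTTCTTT
TRBJ2-1 with TRBV24-1: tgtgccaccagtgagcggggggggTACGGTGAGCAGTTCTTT
TRBJ2-2 with TRBV7-4: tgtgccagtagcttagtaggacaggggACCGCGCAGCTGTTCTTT
TRBJ2-3 with TRBV9: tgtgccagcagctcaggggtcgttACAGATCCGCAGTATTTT
TRBJ2-3 with TRBV12-2: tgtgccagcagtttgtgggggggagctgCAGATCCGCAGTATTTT
TRBJ2-4 with TRBV12-2: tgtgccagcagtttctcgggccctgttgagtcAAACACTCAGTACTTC
TRBJ2-5 with TRBV28: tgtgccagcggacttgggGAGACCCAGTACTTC
TRBJ2-6 with TRBV19: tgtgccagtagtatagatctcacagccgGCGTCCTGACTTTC
TRBJ2-7 with TRBV11-1: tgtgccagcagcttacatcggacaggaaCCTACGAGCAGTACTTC
The first TRBJ2-1 clone ended in the variant form. It took 3.85% of Amazo day -5, 5.88% of Amazo day +3, 8.35% of Rocket day -5 (95% Wilson interval 8.28 to 8.42) and 6.26% of Rocket day -4. The second, with the reference form and a V hit tied between genes, took 4.06%, 5.06%, 4.04% and 3.62% of the same libraries. In Amazo day -4 and the Nebula libraries both stood at or below 0.00426%.

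The TRBJ2-3 clone with TRBV9 took 4.12%, 4.09%, 5.68% and 4.41% of Amazo day -5, Amazo day +3, Rocket day -5 and Rocket day -4. The other TRBJ2-3 clone, its V hit also tied between genes, took 2.60%, 2.72%, 3.36% and 3.08%. These 4 clones, of TRBJ2-1 and TRBJ2-3, each exceeded 2% in all 4 libraries of the shared repertoire. The leading clones of TRBJ2-2, TRBJ2-5, TRBJ2-6 and TRBJ2-7 reached 1.76%, 1.01%, 1.58% and 1.20% of Rocket day -5. The TRBJ2-1 clone with TRBV24-1 and the TRBJ2-4 clone belonged to Amazo day -4, with 2.29% and 1.48%. In Amazo day -5 they stood at 0.0365% (127 counts) and 0.0287%. The TRBJ2-7 clone, at 1.20% of its library, carried 17 of the 19 J-encoded bases, the TRBJ2-6 clone 14 of 25. Each of the 10 clones had 0 counts in each of the 4 baseline libraries, where 0 of 63 to 74 counts allows a share of up to 4.05% to 4.76%.

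Use was then compared between time points with edgeR's quasi-likelihood test on counts per J gene, all 13 genes tested and p adjusted by the Benjamini-Hochberg method. From day -5 to day -4, with the animal name as block, 0 of the 7 TRBJ2 segments passed the threshold of 0.05, and 0% of the 13 genes were called (0 at an unadjusted p below 0.05, and 0 calls with DESeq2, where 1 gene, TRBJ2-3, had an unadjusted p below 0.05). Fold changes on the log2 scale were -0.53 ± 0.33 (SE) for TRBJ2-3, -0.35 ± 0.37 for TRBJ2-1, -0.25 ± 0.17 for TRBJ2-2, -0.16 ± 0.094 for TRBJ2-6, -0.058 ± 0.14 for TRBJ2-5, 0.12 ± 0.22 for TRBJ2-7 and 0.26 ± 0.13 for TRBJ2-4 (edgeR adjusted p from 0.510 to 0.860). Without the Amazo pair, whose libraries hold different repertoires, 2 segments passed in edgeR, TRBJ2-1 with -0.14 ± 0.019 (adjusted p = 7.16e-05) and TRBJ2-3 with -0.16 ± 0.023 (adjusted p = 8.23e-05). That fit rests on 2 pairs and on counts that include PCR copies, so its p-values do not measure a spread between animals. By clonotypes TRBJ2-1 was lower at day -4 in the Nebula pair but not in the Rocket pair. Without the Amazo pair the values that did not pass also lay nearer to 0, with -0.072 for TRBJ2-2, -0.11 for TRBJ2-6, 0.0047 for TRBJ2-5, 0.060 for TRBJ2-7 and 0.15 for TRBJ2-4.

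TRBJ2 made up 64.3% ± 7.34 of counts at day -5 and 60.4% ± 6.55 of counts at day -4 (SD, n = 3). The share was lower at day -4 in 3 of 3 pairs, by 3.90 ± 5.29 points (exact sign-flip p = 0.25), a mean difference within its SD. The difference was -0.853 points without the Amazo pair and -1.08 points without clones of at least 0.5%. By clonotypes the shares were 62.1% ± 4.11 and 61.1% ± 3.11 (SD, n = 3), a difference of -0.970 ± 1.38 points (exact sign-flip p = 0.5).

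Against baseline, TRBJ2 took 149 of 280 pooled baseline counts (53.2%, 95% Wilson interval 47.4 to 59.0). The single baseline libraries spread widely around it, at 54.0% ± 16.8 (SD, n = 4), from 33.8% to 74.6%. The differences were 10.3 points at day -5 (exact permutation p = 0.4) and 6.45 points at day -4 (exact permutation p = 0.6), both within the baseline spread. Without baseline 3 they were 3.61 and -0.290 points, and without baseline 2 they were 17.2 and 13.3 points. Without the Rocket library the day -4 difference was 2.74 points. By clonotypes they were 7.73 points (exact permutation p = 0.343) and 6.76 points (exact permutation p = 0.457), with 14.4 and 13.5 points without baseline 2, 5.12 and 4.15 without baseline 3 and 4.06 and 3.09 without baseline 4. Both comparisons share the baseline libraries. In edgeR 0% of the 13 J genes were called at either day. At each day 1 gene, TRBJ1-3, had an unadjusted p below 0.05. DESeq2 made 0 calls, with 3 such genes at day -5 (TRBJ2-2, TRBJ1-3 and TRBJ1-6) and 2 at day -4 (TRBJ1-3 and TRBJ1-6). TRBJ2-2 had the highest fold change of the 7, 0.94 ± 0.57 (SE) on the log2 scale at day -5 (edgeR adjusted p = 0.364) and 0.81 ± 0.61 at day -4 (edgeR adjusted p = 0.821), from 11 of 280 baseline counts. Without baseline 4 these were 0.60 and 0.47, below TRBJ2-6 with 1.02 and 0.98, and with each clonotype counted once the day -5 value was 0.60.

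Productive and nonproductive clonotypes were then separated. A clonotype was nonproductive if its CDR3 length was no multiple of 3 bases or if it was in frame with a stop codon. Of TRBJ2 clonotypes 7.11% ± 1.46 were nonproductive (SD, n = 8). Out-of-frame rows made up 6.37% ± 1.26 of TRBJ2 clonotypes and rows with a stop codon 0.735% ± 0.229. Weighted by counts the nonproductive share was lower, 4.18% ± 0.827 (SD, n = 8), from 2.71% for TRBJ2-1 to 7.61% for TRBJ2-4. Between libraries this weighted share ran from 3.22% in Amazo day +3 to 5.39% in Amazo day -4. By clonotypes the lowest value was 4.87% in Nebula day -4, the shallowest of the 8 libraries, the median 6.90% and the highest 10.1% in Rocket day -5, the deepest. Each of the 7 segments had its lowest and highest value in these same libraries. Thinned to the smallest post-infusion total, the shares ranged from 4.51% for TRBJ2-1 to 8.54% for TRBJ2-4. The part of depth in the spread between libraries was not otherwise tested.

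TRBJ2-4 had the highest nonproductive share, 9.66% ± 2.07 (SD, n = 8), from 7.01% to 14.3% with a median of 9.49%. TRBJ2-5 followed with 8.63% ± 2.14 and TRBJ2-3 with 7.45% ± 1.82. TRBJ2-2 had 6.58% ± 1.14, TRBJ2-6 6.12% ± 1.24, TRBJ2-7 5.71% ± 1.45 and TRBJ2-1 5.67% ± 1.01. With 1 library per repertoire TRBJ2-4 was again highest (11.2%) and TRBJ2-1 lowest (6.15%). In that set 8.30% of TRBJ2 clonotypes lay within 1 base of a clone with at least 10 times the count, beside 3.88% over the 8 libraries. Without these rows the TRBJ2 nonproductive share of that set went from 8.31% to 7.19%. Within libraries TRBJ2-4 exceeded the mean of the other 6 segments by 2.97 ± 0.863 points and TRBJ2-5 by 1.76 ± 0.952 points, both in 8 of 8 libraries. TRBJ2-1, TRBJ2-7 and TRBJ2-6 stood below it in 8 of 8, by -1.69 ± 1.05, -1.64 ± 0.276 and -1.17 ± 0.597 points. The exact sign-flip test over 3 names gave p = 0.25, its smallest value, for each of these 5 segments.

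The order of use therefore differed between the classes. Among productive clonotypes TRBJ2-7 or TRBJ2-1 was first in every library. Among nonproductive clonotypes TRBJ2-4 was first in 7 of 8 and TRBJ2-3 in Rocket day -5. TRBJ2-4 took 11.05% ± 1.04 of nonproductive and 8.99% ± 0.522 of productive clonotypes, higher among the former in 8 of 8 libraries (2.06 ± 0.904 points). TRBJ2-7 took 8.01% ± 0.459 and 11.7% ± 0.272, a difference of -3.66 ± 0.586 points, and TRBJ2-1 7.73% ± 1.67 and 11.1% ± 1.91, a difference of -3.39 ± 1.07 points, both lower in 8 of 8. TRBJ2-2 and TRBJ2-6 were also lower in 8 of 8. TRBJ2-5 was higher in 6 of 8 and TRBJ2-3 in 2 of 8, with differences of 0.641 ± 0.892 and -0.778 ± 1.12 points that did not exceed their SDs. With out-of-frame clonotypes alone against productive ones, TRBJ2-5 was higher in 7 of 8 by 1.36 ± 1.07 points, TRBJ2-3 in 3 of 8 by 0.00686 ± 1.15 points and TRBJ2-4 in 8 of 8 by 3.15 ± 0.895 points. TRBJ2-1, TRBJ2-7, TRBJ2-2 and TRBJ2-6 were higher there in 0 of 8, with -2.99 ± 1.01, -3.09 ± 0.584, -0.941 ± 0.474 and -0.697 ± 0.314 points. TRBJ2-6 was last in both classes in each library.

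**Figure D4:**
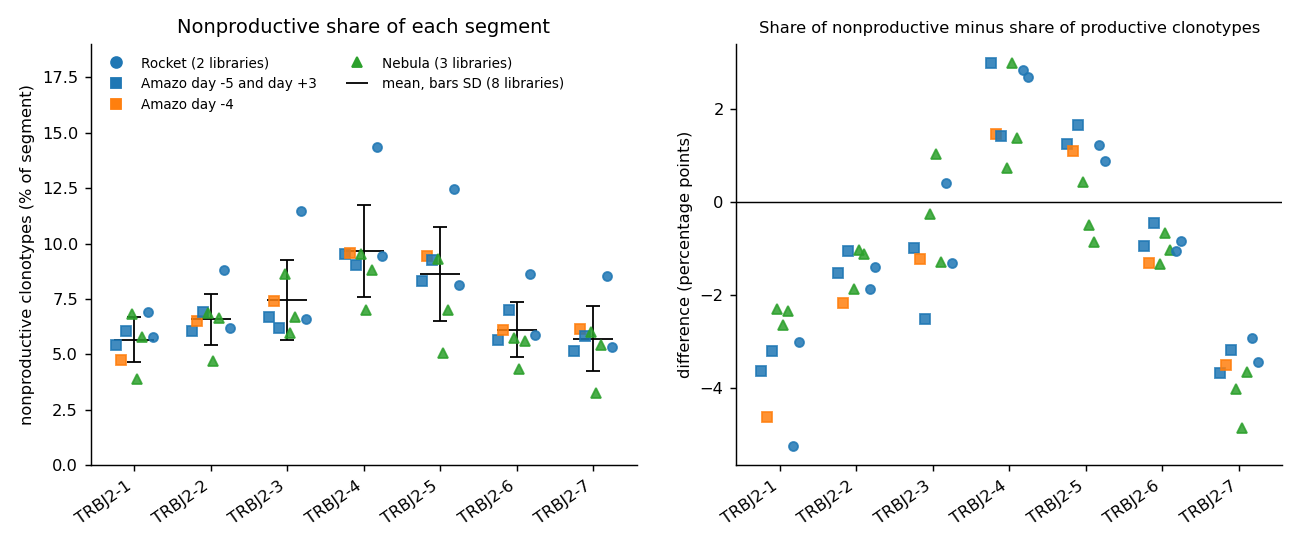
Left, nonproductive clonotypes as a percent of each segment's clonotypes in the 8 post-infusion libraries, with the mean and SD. Right, each segment's share of nonproductive clonotypes minus its share of productive clonotypes (percentage points), 1 point for each library. TRBJ2-4 lay above 0 in 8 of 8 libraries, and TRBJ2-1, TRBJ2-2, TRBJ2-6 and TRBJ2-7 lay below 0 in 8 of 8.

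Compared with TRBJ1, TRBJ2 had a lower share of nonproductive clonotypes, 7.11% ± 1.46 against 9.50% ± 1.99 (SD, n = 8), lower in 8 of 8 libraries. Over the 3 names the difference was -2.40 ± 0.164 points (exact sign-flip p = 0.25), and with 1 library per repertoire it was -3.05 points. In single libraries it ran from -3.39 to -1.19 points. Amazo and Rocket share a repertoire in part, so the SD over names is not a spread between independent animals. Without rows close to a larger clone, the shares with 1 library per repertoire were 7.19% for TRBJ2 and 10.6% for TRBJ1. Most of the difference between the clusters lay with 1 gene of TRBJ1. TRBJ1-3 had 20.9% ± 5.19 nonproductive clonotypes, 13.3% ± 3.95 with a stop codon in frame. Without TRBJ1-3 the difference was -0.474 points (exact sign-flip p = 0.25), an alternative chosen after seeing the data.

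Mean CDR3 length differed between segments, within a wide spread of single clonotypes. The SD of length among the productive TRBJ2 clonotypes of a library averaged 5.43 bases, and 5.29 bases for TRBJ2-2 alone. The SDs below are those of library means. Productive CDR3s with TRBJ2 averaged 43.8 ± 0.152 bases and those with TRBJ1 42.8 ± 0.106 (SD, n = 8), longer with TRBJ2 in 8 of 8 libraries. Over names the difference was 1.00 ± 0.0545 bases (exact sign-flip p = 0.25), and in single libraries it ran from 0.892 to 1.08 bases. TRBJ2-6 gave the longest CDR3s, 47.9 ± 0.315 bases, and TRBJ2-7 the shortest, 41.9 ± 0.141. Between them lay TRBJ2-2 with 45.3 ± 0.167, TRBJ2-4 with 44.2 ± 0.168, TRBJ2-3 with 43.8 ± 0.267, TRBJ2-1 with 43.5 ± 0.159 and TRBJ2-5 with 43.1 ± 0.155 bases. Ranks 1, 2, 3, 6 and 7 were held by the same segments in 8 of 8 libraries, and only TRBJ2-3 and TRBJ2-1 exchanged places. CDR3s of more than 48 bases made up 35.3% ± 2.61 of productive TRBJ2-6 clonotypes and 5.38% ± 0.747 of those with TRBJ2-7. CDR3s of fewer than 39 bases made up 2.09% ± 0.465 and 17.1% ± 1.20.

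The difference lay at the J end. TRBJ2-6 CDR3s exceeded TRBJ2-7 CDR3s by 5.96 ± 0.258 bases in the mean. The J-matching part was 7.55 ± 0.110 bases longer, and the rest of the CDR3 differed by -1.59 ± 0.327 bases (SD, n = 8). TRBJ2-6 kept its J part whole in 37.5% ± 1.62 of productive clonotypes and lost 2.22 ± 0.133 bases on average. TRBJ2-4 kept it whole in 23.4% ± 1.11. The other segments did so in 6.13% to 11.5% and lost 3.77 to 5.20 bases, TRBJ2-1 the most. A base added at random can match the J part, so kept bases are an upper value.

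**Figure D5:**
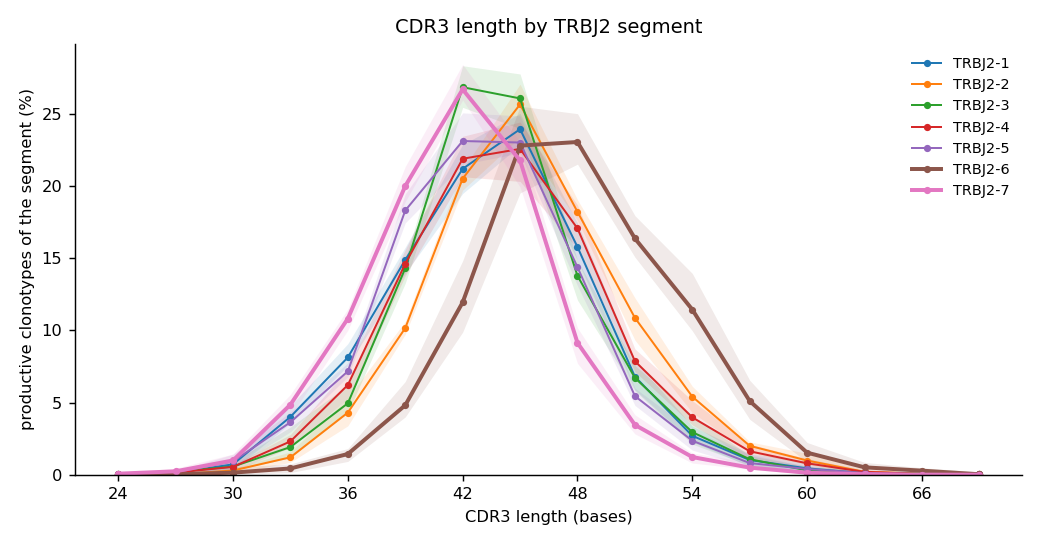
Distribution of CDR3 length (x axis, bases) among productive clonotypes of each TRBJ2 segment (y axis, %), as the mean of 8 post-infusion libraries, with the range over libraries shaded. In-frame lengths from 24 to 69 bases are drawn. The curve of TRBJ2-6, with a mean of 47.9 bases, lies to the right of the others, and that of TRBJ2-7, with a mean of 41.9 bases, to the left.

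Weighting by counts moved the mean length of TRBJ2-1 the most, from 43.5 ± 0.159 to 41.5 ± 2.05 bases. It was lowest in Amazo day +3 (39.3 bases), where the clones of 39 and 33 bases shown above led the segment, and highest in Nebula day -5 (43.6 bases). TRBJ2-6 went to 46.4 ± 1.02 and TRBJ2-2 to 45.8 ± 0.857 bases.

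D hits differed between segments as well. Among productive clonotypes with a single D hit, TRBD2 made up 50.7% ± 2.25 with TRBJ2 and 13.2% ± 0.580 with TRBJ1 (SD, n = 8). TRBD2 lies downstream of TRBJ1, and how many D hits were assigned to the wrong gene was not tested. TRBJ2-5 had the highest share of TRBD2, 58.4% ± 2.09, and TRBJ2-7 (41.9% ± 2.33) and TRBJ2-6 (43.5% ± 1.97) the lowest. No D hit was found for 37.7% ± 2.33 of TRBJ2-6 clonotypes and for 21.9% to 25.9% of the other segments.

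V partners were similar across the cluster. TRBV23-1 was the most frequent V gene of all 7 segments, with 7.74% ± 1.23 of TRBJ2-1 clonotypes at the low end and 9.57% ± 1.48 of TRBJ2-3 clonotypes at the high end (SD, n = 8), beside 9.27% of all clonotypes. TRBV5-1 was among the 3 most frequent V genes of 6 segments, and TRBV20-1 (5.21% ± 0.901) and TRBV27 (4.44% ± 0.734) followed TRBV23-1 for TRBJ2-4. The 3 most frequent V genes together took 18.6% to 19.9% of each segment.

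Some pairs stood apart from the product of V and J use. Observed clonotypes were compared with those expected from the V share of all clonotypes, for V genes with at least 20 expected clonotypes in every post-infusion library. TRBV29-1 was rare with TRBJ2-2, with a mean log2 ratio of -1.29 ± 0.34 (SD, n = 8), below 0 in all 8 libraries. It was also the lowest partner of TRBJ2-3 (-0.52 ± 0.16) and TRBJ2-4 (-0.57 ± 0.23) and the highest of TRBJ2-7 (0.35 ± 0.089). TRBV19 went from 0.62 ± 0.17 with TRBJ2-2 to -0.54 ± 0.27 with TRBJ2-5 and -0.70 ± 0.13 with TRBJ2-7. TRBV3-1 was highest with TRBJ2-4 (0.62 ± 0.24), but 19.6% of its clonotypes had a V hit tied with another gene. TRBV3-4 was the highest partner of TRBJ2-1 (0.42 ± 0.15) and TRBJ2-5 (0.51 ± 0.20). For TRBJ2-6 only 7 V genes reached the minimum, and their mean log2 ratios lay between -0.21 and 0.19.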

How the data were processed

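RNA of 12 macaque blood samples was converted to cDNA by template switching, and the rearranged TRB region was amplified and read on a MiSeq. Trimmomatic was used by the authors to trim the reads, and MiXCR at default settings to assemble clones from the TRB segments known in this species (versions not given in the sources used here). The deposited counts are whole numbers of sequences per clone and were not normalized. The deposited fraction is the count divided by the library total, and shares were computed from counts. The barcode collapse and the 0.5% clone threshold that the study's methods describe were not seen in the tables. PCR copies are not independent molecules, so intervals and floors cover counting error only. J, V and D genes were the first hits.

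Counts per J gene were tested with edgeR 4.0.16 (quasi-likelihood, TMM, at least 10 counts in at least 3 libraries) in R 4.3.3, with DESeq2 1.42.0 as an alternative. Single values were tested by exact two-sided sign-flip tests (smallest p 0.25) or permutation tests (smallest p 0.0571). Libraries of a group carry different animal names, but some names share a repertoire, so p-values measure only the spread between these libraries. Animal names paired day -5 and day -4. Deviations from the group mean over 13 J genes correlated between the days for Nebula (0.851) and Rocket (0.980). They did not for Amazo (-0.228), whose libraries at these days hold different repertoires. Python 3.11.15, pandas 2.3.3, scipy 1.17.1 and matplotlib 3.10.9 were used otherwise. Alternatives were minimum counts, productive, untied or count-weighted clonotypes, removal of large clones or of rows within 1 base of a clone with at least 10 times the count, thinning to 42695 counts (20 draws), other scaling, no block, and leaving out libraries. All 7 segments were named. V partners, likeness and clones followed fixed rules (the 3 most frequent V genes and the extreme pairs, the J gene of highest correlation, and the largest clone of each segment with all above 2%). The segments, lists and rules were chosen with earlier results of these data known.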

Additional observations from a re-analysis of the deposited data

How the results depend on the processing

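Direction and side of the threshold were kept in 230 of 252 segment fold changes, each under one alternative. Direction alone was kept in 65 of 66 differences in TRBJ2 share, and in 10 of 10 nonproductive and 9 of 9 length differences between the clusters. The exact tests behind these last counts have so few possible p-values that the threshold is no check on them. The mean order of the 7 segments kept 6 of 6 neighbouring pairs with at least 2 counts, untied hits, no near rows, thinning or 1 library per repertoire, 3 pairs when weighted by counts, 5 pairs in the 4 libraries with both forms of TRBJ2-1, 5 in the 4 with 1 form, and 5 to 6 when a name was left out (5 without Nebula). Leaving out a pair gave 0 to 2 J genes called between day -5 and day -4, and 2 were called without Amazo. The TRBJ2 share of counts at day -4 minus baseline ran from -0.290 (without baseline 3) to 13.3 points. Without the replicate block, the day -4 minus day -5 differences were -3.90 points of counts (exact permutation p = 0.5) and -0.970 points of clonotypes (exact permutation p = 0.6), and 0 J genes were called, so the pairing changed no call.

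Signs of small log2 fold changes turned as follows, none of them called, and the cause was not tested. From day -5 to day -4, TRBJ2-2 was 0.010 with each clonotype counted once and 0.046 without clones of at least 0.5%, and TRBJ2-5 was 0.037 with total counts and -0.079 to 0.0047 with a pair left out. Against baseline at day -5, removal of these clones gave -0.36 for TRBJ2-3 and 0.14 for TRBJ2-4, and counting each clonotype once gave 0.022 for TRBJ2-5. With a library left out, TRBJ2-3 ran from -0.055 to 0.47, TRBJ2-4 from -0.80 to 0.031 and TRBJ2-6 from -0.10 to 1.02. At day -4, TRBJ2-4 was 0.11 with total counts, 0.053 with DESeq2 and 0.24 without large clones, and TRBJ2-5 was 0.010 with each clonotype once. With a library left out, TRBJ2-4 ran from -0.41 to 0.42, TRBJ2-6 from -0.13 to 0.98 and TRBJ2-7 from -0.31 to 0.088. The 63 to 74 counts of a baseline library limit every comparison with baseline, and 3 repertoires limit every test over libraries.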

Other observations

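The pattern of a segment's use over libraries was set beside those of the other J genes. By the centred log ratio of clonotype share over the 8 post-infusion libraries, TRBJ2-1 was most like TRBJ1-6 (Pearson's r = 0.952, across libraries that share cells, without a test), and TRBJ2-3 was most like TRBJ2-1 (r = 0.933). TRBJ2-2 and TRBJ2-6 were most like each other (r = 0.811), TRBJ2-4 was most like TRBJ2-2 (r = 0.802) and TRBJ2-5 most like TRBJ1-6 (r = 0.825). TRBJ2-7, which varied least, had no J gene above 0.569. Shares of a library sum to a constant, and the 8 points hold 3 repertoires.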
